A study of Homo sapiens with 6 samples.

Results

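The genes described are those whose symbol in the array annotation is ZNF followed by a number and at most 1 letter, the usual name of a human zinc finger gene with no other name. Of 231 such genes, represented by 300 probe sets with 1 gene each, 115 had a probe set among the brighter 50 percent, by log2 intensity averaged over all arrays, a geometric mean of 63.3 or more. Each was read through its brightest probe set. They were 115 of the 6838 genes that passed the same threshold. The pattern also takes symbols that end in P for pseudogene, and ZNF767P and ZNF271P are among the 115. The genes were thus selected on mean intensity over all 6 arrays and on no ratio, and their intensity levels are given as a description. A dim gene could thereby pass through the group in which it was higher.

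The RNA came from MM.1S, an established human multiple myeloma cell line. Enzastaurin, which blocks the kinase PKC beta, was given for 3, 6 or 12 h, and cells without the drug were taken at each of those times. Every combination of treatment and time had 1 array, giving 3 enzastaurin arrays and 3 untreated arrays, and no dose or vehicle is stated in the labels. Values are linear Affymetrix MAS5 intensity, and ratios are log2 of enzastaurin over untreated at the same time.

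Most ZNF proteins carry a row of C2H2 fingers, short loops that each hold a zinc ion between cysteine and histidine side chains and contact a few bases of DNA. Many also carry a KRAB box at the amino end, which recruits the corepressor TRIM28 and through it the histone methyltransferase SETDB1 and heterochromatin proteins, and which silences transposable elements in many tissues. Others have a SCAN domain for pairing with each other, work with other corepressors or activators, or bind RNA and protein in place of DNA. Many ZNF genes lie in arrays of related copies on chromosome 19, and such copies are similar enough that probes for one can detect another.

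RefSeq held all 115 genes, 37 of them on chromosome 19, 12 on chromosome 7 and 10 on chromosome 16. The plasma cell and myeloma markers were present, with 8 of 8 measured genes above the intensity threshold. Their summed intensity was 18870 to 22570 with enzastaurin and 20690 to 24610 in untreated cells. At 12 h TNFRSF17 read 528 with enzastaurin against 4474 in untreated cells, and of the 8 only XBP1 and JCHAIN were higher with enzastaurin. Markers of T and NK cells (6 of 6 measured) and of monocytes (6 of 6) all lay below the intensity threshold, with no value over 54.8 on any array. The summed intensity of the T and NK list was 141.9 to 161.3 with enzastaurin and 129.5 to 147.0 in untreated cells, and that of the monocyte list 110.5 to 127.5 with enzastaurin and 98.3 to 133.5 in untreated cells. Among the ZNF genes, 15 had a value under 54.8 on at least 1 array, and none had it on more than 2. Median intensity over all probe sets was 62.2 to 67.6. Probe sets for ribosomal RNA varied widely. Averaged on the log2 scale they read 9.99, 3.79 and 3.02 in enzastaurin-treated cells at 3, 6 and 12 h, against 3.39, 11.98 and 9.29 in untreated ones. The log2 ratio of 3' to 5' ACTB probe sets was 2.0, 0.57 and 0.86 with enzastaurin at 3, 6 and 12 h and 1.89, 1.16 and 1.60 in untreated cells. The part of the ACTB ratio in the results below was not tested, and ribosomal RNA intensity was tried as a covariate for the treatment fit.

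Intensity was the value the genes were selected on, and probe sets differ in how brightly they read a transcript, so intensities of different genes do not rank their transcripts. The median geometric mean intensity of the ZNF probe sets was 118.7, against 246.9 over all 6838 genes, and 39 of them lay under 100 and 6 at 500 or above. The brightest probe set was that of ZNF207, a protein that binds BUB3 and the spindle, at 1555. It was followed by ZNF706 at 1147, ZNF665 at 1087, ZNF146, which consists of little but zinc fingers, at 720.0, and ZNF22 at 701. Just inside the threshold were ZNF264 at 63.9, ZNF174 at 66.3 and ZNF747 at 66.8, and just outside it were ZNF140 and ZNF468 at 63.2 and ZNF688 at 62.8.

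As a set, the ZNF genes lay close to their untreated levels. The median log2 ratio of the 115 genes was -0.14, 0.02 and -0.15 at 3, 6 and 12 h, and that of all 6838 genes was -0.04, 0.06 and -0.18. At 3 h 73 of the 115 genes were below 0, at 6 h 57 and at 12 h 68. These were 63.5, 49.6 and 59.1 percent, against 53.6, 45.6 and 61.1 percent of all genes. The middle 50 percent of the ZNF ratios spanned 0.56, 0.81 and 0.81 log2 units at 3, 6 and 12 h, against 0.59, 0.67 and 0.83 over all genes. Over the 3 times 91 of the 115 genes stayed within 2-fold of untreated cells throughout, which is 79.1 percent, against 77.8 percent of all genes.

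**Figure D1:**
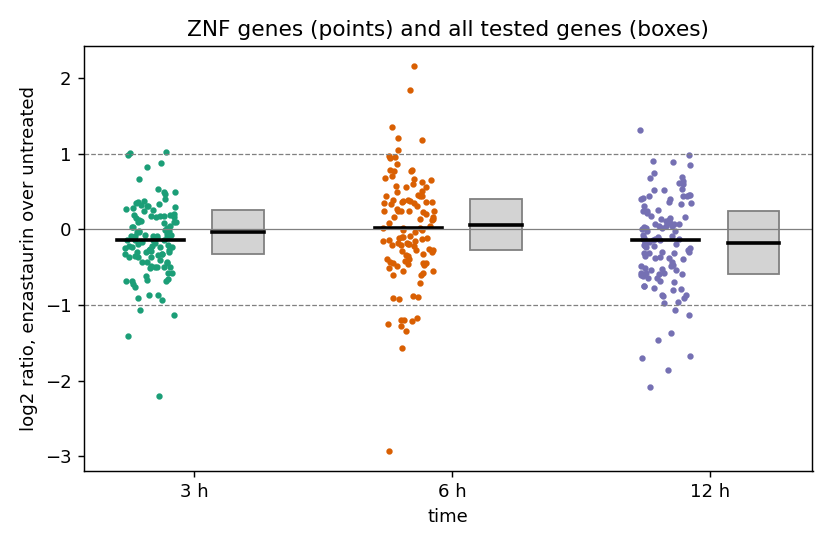
Log2 ratio of enzastaurin over untreated cells (vertical axis) for the 115 ZNF genes at 3, 6 and 12 h (points, with horizontal jitter only), beside the middle 50 percent of all 6838 tested genes (grey boxes); black bars are medians and dashed lines mark 2-fold. The ZNF medians of -0.14, 0.02 and -0.15 lie inside the grey boxes, and the lowest point at 6 h is ZNF652 at -2.93.

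The first comparison asked which ZNF genes differed between enzastaurin and untreated cells over all 3 times. In limma with the time point as a block, 0 of the 115 genes had an adjusted p under 0.05, where 0.0585 percent of all genes did. At an unadjusted p under 0.05 there were 7 of 115, against 5.41 percent of all genes. The smallest adjusted p among the ZNF genes was 0.154. Errors below are moderated standard errors from this fit for 3 time-matched ratios (n = 3). Each combines the gene's own residual, with 2 degrees of freedom, and a prior from all tested genes, with 9.26, which carries most of it. The spread behind them is between these arrays only and may be technical, as the labels name no separate cultures. It also holds any change of the ratio with time.

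The 2 lowest mean ratios belonged to ZNF652 and ZNF212. ZNF652 encodes a DNA-binding repressor that works with the ETO-family corepressor CBFA2T3. Its intensity was 277, 100.03 and 96.2 in enzastaurin-treated cells at 3, 6 and 12 h, against 389, 765 and 407 in untreated ones. The 3 enzastaurin arrays all lay below the 3 untreated arrays, by little at 3 h and by 7.65-fold at 6 h and 4.23-fold at 12 h. The mean log2 ratio was -1.84 (SE 0.42, n = 3, adjusted p = 0.282 in limma). The untreated value at 6 h was the highest of the 6, so part of the 6 h ratio lay on the untreated side.

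ZNF212, a KRAB-like zinc finger gene on chromosome 7, had intensities of 128, 82.6 and 59.1 with enzastaurin at 3, 6 and 12 h. In untreated cells it had 282, 246 and 214. It was thus lower with enzastaurin on every array, by 2.20-fold, 2.98-fold and 3.62-fold at 3, 6 and 12 h. The mean log2 ratio was -1.52 (SE 0.30, n = 3, adjusted p = 0.154 in limma). ZNF652 and ZNF212 were each measured by 1 probe set, and no second one was there to set beside it.

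A fit without the 3 h pair called both genes lower. With 2 pairs each gene keeps only 1 residual degree of freedom, while the prior from all tested genes brings 16.86. The spread used for a gene is thus nearly all borrowed from other genes, and the 2 pairs alone would not give these p-values. In this fit ZNF652 had a log2 ratio of -2.51 (SE 0.35, n = 2, limma adjusted p = 0.000447) and ZNF212 one of -1.71 (SE 0.36, n = 2, limma adjusted p = 0.0105). They were 2 of 115 ZNF genes called lower, and 0 were called higher, where 2.08 percent of all genes were called lower and 1.54 percent higher. Without the 6 h pair the adjusted p was 0.9997 for both genes, and without the 12 h pair it was again 0.9997 for both. In the 6 h and 12 h pairs the ribosomal RNA intensity was lower with enzastaurin. With that intensity as a covariate in the fit of all 3 pairs, an alternative added after seeing the data that leaves 1 residual degree of freedom, the ratio was -1.44 for ZNF652 (adjusted p = 0.00183 in limma) and -1.42 for ZNF212 (adjusted p = 0.00435 in limma).

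**Figure D2:**
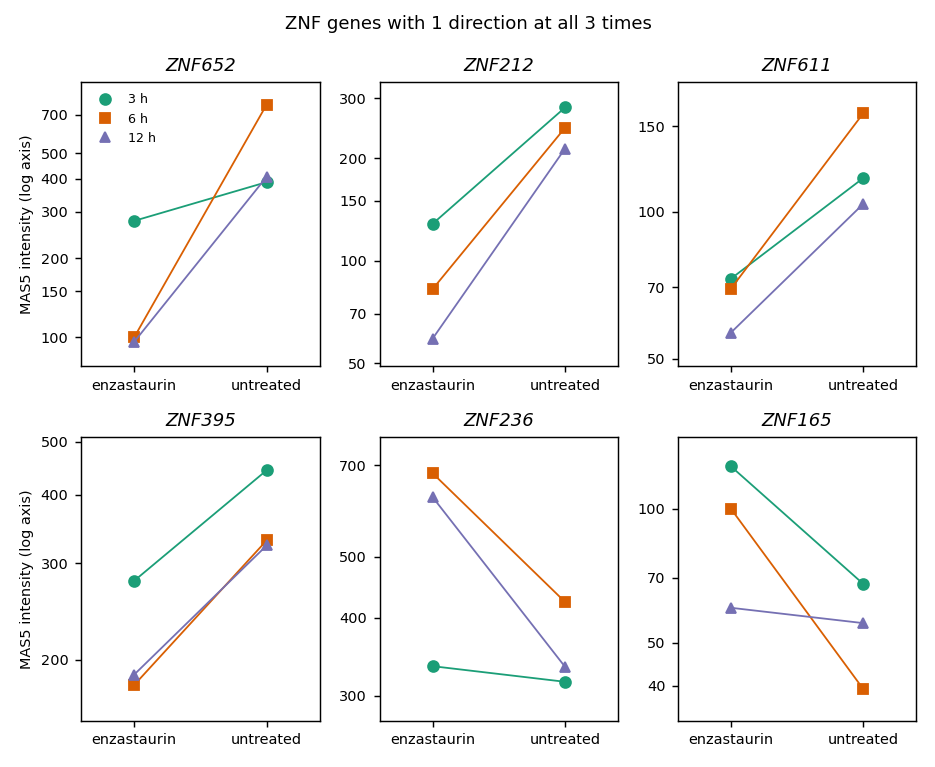
MAS5 intensity (log axis) of 6 ZNF genes with 1 direction at all 3 times, with enzastaurin on the left and untreated cells on the right of each panel; a line joins the 2 arrays of a time (circles 3 h, squares 6 h, triangles 12 h) and each point is 1 array. ZNF652, ZNF212, ZNF611 and ZNF395 are lower with enzastaurin at every time, and ZNF236 and ZNF165 are higher.

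The promoters of both genes are shown because they are the ZNF genes with the lowest ratios at 6 h and 12 h, and that of ZNF143 because it held 3 of the 8 motifs searched. Each is the 250 bases before the RefSeq gene start in GRCh38.p14, 5′ to 3′ on the gene's strand, and capitals mark motif matches. ZNF652 lies on the minus strand at chr17:49362251-49362500, ZNF212 on the plus strand at chr7:149239401-149239650 and ZNF143 on the plus strand at chr11:9460762-9461011.
ZNF652: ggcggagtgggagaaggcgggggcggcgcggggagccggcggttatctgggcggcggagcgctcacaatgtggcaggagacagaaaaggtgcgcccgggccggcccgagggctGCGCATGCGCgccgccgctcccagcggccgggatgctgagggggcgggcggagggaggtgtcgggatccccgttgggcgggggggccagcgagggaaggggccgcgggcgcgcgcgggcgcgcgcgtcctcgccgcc
ZNF212: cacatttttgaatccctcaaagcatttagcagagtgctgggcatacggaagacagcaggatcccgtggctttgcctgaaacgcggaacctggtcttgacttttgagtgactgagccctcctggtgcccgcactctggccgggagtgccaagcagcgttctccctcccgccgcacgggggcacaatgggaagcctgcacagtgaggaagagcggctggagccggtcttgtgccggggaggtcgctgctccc
ZNF143: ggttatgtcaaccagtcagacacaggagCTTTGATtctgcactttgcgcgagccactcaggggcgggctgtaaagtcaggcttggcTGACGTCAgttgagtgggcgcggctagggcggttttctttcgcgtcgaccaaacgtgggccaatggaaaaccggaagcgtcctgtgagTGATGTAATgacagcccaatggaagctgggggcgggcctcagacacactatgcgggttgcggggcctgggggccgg
The window of ZNF652 was 79.6 percent G and C and held the palindromic NRF1 motif, in capitals above, and the window of ZNF212, at 61.2 percent, held none of the 8 motifs. The window of ZNF143 held the TCF and LEF motif CTTTGAT, the cyclic AMP response element TGACGTCA and the C/EBP-ATF motif TGATGNAAT, which CHOP and ATF4 can bind.

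Of the 115 genes 99 had a promoter in the RefSeq table, and motifs were searched on both strands of these 250 bases. The ETS motif CCGGAAGT was found in 17 of 99, or 17.2 percent, against 7.89 percent of the 5702 promoters of tested genes and 3.64 percent of all 27305. The cyclic AMP response element TGACGTCA was in 6.06 percent of the ZNF windows, against 3.44 percent of tested genes and 1.77 percent of all. The E-box CACGTG, bound by MYC and BHLHE40, was in 9.09 percent against 9.38 percent of tested genes and 6.49 percent of all, and the NRF1 motif in 10.1 percent against 11.5 and 5.53 percent. The AP-1 motif TGANTCA was in 2.02 percent against 3.67 and 6.60 percent. The remaining motifs were in few windows: CTTTGAT in 3 (3.03 percent, against 1.19 and 2.28 percent), TGATGNAAT in 1 (1.01 percent, against 0.421 and 0.916 percent) and ACTACAAT, part of the ZNF143 site, in 2 (2.02 percent, against 0.877 and 0.619 percent). The 17 genes with the ETS motif had a median mean log2 ratio of 0.01 and the 82 without it one of -0.08. A match is a stretch of letters and not a measured binding site.

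Besides ZNF652 and ZNF212, the lowest mean ratios of 1 sign at all 3 times were those of ZNF611, ZNF395, ZNF143, ZNF512B, ZNF160 and ZNF443. ZNF611, a KRAB gene on chromosome 19, had intensities of 72.9, 69.6 and 56.5 in enzastaurin-treated cells at 3, 6 and 12 h, against 117, 160 and 104 in untreated ones (mean log2 ratio -0.92, SE 0.31). Its arrays did not overlap between the groups, and its probe set is of a type whose probes can match several genes. ZNF395, a factor first described as binding the promoters of papillomavirus and huntingtin, had 279, 180.0 and 188 in enzastaurin-treated cells, against 444, 331 and 324 in untreated ones (-0.78, SE 0.29). Its ratios of -0.67, -0.88 and -0.78 were the most even among the genes with the 4 lowest of these means.

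ZNF143 activates many promoters of housekeeping and small RNA genes. It had 92.8, 91.7 and 81.7 in enzastaurin-treated cells at 3, 6 and 12 h, against 126, 125 and 171 in untreated ones (mean log2 ratio -0.65, SE 0.31). A second, dimmer probe set of ZNF143 had a mean ratio of 0.22, the opposite sign. ZNF512B, which binds the NuRD complex, had 122, 112.5 and 103 in enzastaurin-treated cells, against 151, 183 and 193 in untreated ones (-0.64, SE 0.30), and its second, dimmer probe set had a mean ratio of -0.59. The mean was -0.56 for ZNF160 and -0.54 for ZNF443, both KRAB genes of chromosome 19. In limma the lowest adjusted p among these 6 was 0.633 and the highest 0.980.

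Over all members, 12 of the 115 genes had every enzastaurin array below every untreated array and 2 had every one above, against 7.18 and 3.47 percent of all genes. At all 3 times 21 genes, or 18.3 percent, were below 0 and 7 genes, or 6.09 percent, above 0, against 14.2 and 9.14 percent of all genes.

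The 7 genes above 0 at all 3 times were led by ZNF165 and ZNF236. ZNF165, a SCAN zinc finger gene known as a cancer-testis antigen, had 124.5, 99.98 and 59.9 in enzastaurin-treated cells at 3, 6 and 12 h, against 67.7, 39.3 and 55.3 in untreated ones (mean log2 ratio 0.78, SE 0.34, adjusted p = 0.903 in limma). The untreated value at 6 h lies under the highest value of the T, NK and monocyte markers, so the size of that ratio is not exact. Averaged over its untreated arrays alone ZNF165 lay under the intensity threshold, so it passed through its enzastaurin arrays. So did ZNF250 and, narrowly, ZNF133, named below. ZNF236, described as responsive to glucose, had 334, 680.5 and 623 in enzastaurin-treated cells, against 316, 424 and 334 in untreated ones (0.56, SE 0.30, adjusted p = 0.980 in limma). It was near its untreated level at 3 h and higher at 6 h and 12 h. A second, dim probe set of ZNF236 had ratios of -0.22, 1.02 and 0.50. The other 5 were ZNF250 (0.41), ZNF609 (0.34), the KRAB gene ZNF133 (0.24), ZNF384, a nuclear matrix factor (0.16), and ZNF189 (0.14). Further, dimmer probe sets of ZNF609 had mean ratios of -0.90, with all 3 times below 0, and of 0.63, and a second one of ZNF133 had 0.34. With the median over its probe sets ZNF384 was at -0.01.

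The members were also read by role, with lists drawn up from known functions. Of the 20 listed genes of cofactor and chromatin complexes 9 passed the intensity threshold, 3 (ZNF219, ZNF423 and ZNF516) lay below it and 8 had no probe set with 1 gene. Among the 9 were ZNF652 and ZNF512B above, ZNF335, part of a histone H3 lysine 4 methyltransferase complex (mean log2 ratio -0.50), and ZNF609 (0.34). Their median mean ratio was -0.14. Of 10 listed promoter-binding regulators 7 had a probe set with 1 gene and all 7 passed the threshold, with a median of -0.31. ZNF24, a SCAN protein, was at -0.02, 0.59 and -1.70 at 3, 6 and 12 h. ZNF281, a zinc finger protein that binds MYC, had -0.76, 0.50 and -0.97, and ZNF174 had 0.50, -0.90 and -0.54. Averaged over its enzastaurin arrays alone ZNF174 lay under the intensity threshold, so it passed through its untreated arrays. On 2 arrays ZNF174 read under 54.8, the highest value of the T, NK and monocyte markers. A second ZNF24 probe set above the threshold had -0.09, -0.34 and -0.32 and another one -1.10, 0.99 and 0.55, so the low 12 h value was seen in 1 of 3.

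Of 14 listed symbols of RNA, ribosome, ubiquitin and spindle biology 7 had a probe set with 1 gene under that symbol. All 7 passed the threshold, with a median mean ratio of -0.20. ZNF207 had 1774, 1659 and 996 in enzastaurin-treated cells at 3, 6 and 12 h, against 1882, 1403 and 1825 in untreated ones, and its second probe set, at 1525 on average, had a 12 h ratio of -0.17 where the brightest had -0.87. ZNF593, whose yeast homologue helps export the large ribosomal subunit, had 408, 228 and 129 with enzastaurin at 3, 6 and 12 h. In untreated cells it had 206, 251.5 and 354.5. The 2 groups thus crossed between 3 h and 12 h, with enzastaurin above untreated at 3 h only. ZNF330 (-0.22) and ZNF106 (-0.23) lay near the median of the list. In limma 0 of these 23 listed genes had an adjusted p under 0.05, against 0.0585 percent of all genes, and 1 of them, ZNF652, an unadjusted one, against 5.41 percent of all genes.

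The partners of KRAB zinc finger proteins were read beside them. Of 32 listed symbols of the TRIM28, NuRD, heterochromatin and HUSH machinery 20 passed the intensity threshold, 5 (CHD3, MTA2, DNMT3A, MPHOSPH8 and EHMT1) lay below it and 7 had no probe set with 1 gene. The counts are by symbol, and FAM208A, among the 7, is an older symbol of TASOR, among the 20. In limma 0 of the 20 passed, against 0.0585 percent of all genes, 3 had an unadjusted p under 0.05, against 5.41 percent of all genes, and the smallest adjusted p was 0.592. The mean log2 ratio was below 0 in 18 of the 20, against 3870 of all 6838 genes, with a median of -0.23, against -0.05 for all genes. At 3, 6 and 12 h the medians were -0.19, -0.11 and -0.31. TRIM28 itself, the KRAB corepressor, had 1505, 1447 and 761 in enzastaurin-treated cells at 3, 6 and 12 h, against 1401, 1519 and 1556 in untreated ones, and so stood apart at 12 h only. The enzastaurin 12 h array held the lowest value of 30.3 percent of all genes, more than any other array. SETDB1, the methyltransferase it recruits, had a mean ratio of -0.21. The lowest means were -0.96 for the DNA methyltransferase DNMT3B, -0.69 for the methyl-CpG reader MBD2 and -0.48 for the histone chaperone RBBP7. Of the ETO-family partners of ZNF652, CBFA2T3 was at -0.10, CBFA2T2 at 0.37 and RUNX1T1 at -0.23.

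At single times, with 1 array on each side and no test, the genes at least 2-fold apart changed with time. After 3 h 2 ZNF genes stood 2-fold or more above untreated cells and 4 below (1.74 and 3.48 percent), against 1.89 and 2.65 percent of all genes. The higher ones were ZNF324, a KRAB gene (log2 ratio 1.02), and ZNF76, a paralogue of ZNF143 (1.005), with ZNF593 at 0.99 and ZNF165 at 0.88 next. ZNF76 read 49.4 in untreated cells, under the highest value of the T, NK and monocyte markers, so its ratio is not exact. The lower ones were ZNF287 (-2.20), ZNF217 (-1.41), ZNF212 (-1.14) and ZNF248 (-1.07).

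After 6 h 6 ZNF genes stood 2-fold or more above and 9 below (5.22 and 7.83 percent), against 5.60 and 3.22 percent of all genes. ZNF287 (2.16), ZNF518A (1.83), ZNF165 (1.35) and ZNF292 (1.21) were highest. ZNF652 (-2.93), ZNF212 (-1.57), ZNF3 (-1.35) and ZNF160 (-1.28) were lowest. After 12 h 1 ZNF gene was at least 2-fold higher and 8 were lower (0.870 and 6.96 percent), against 3.88 and 10.4 percent of all genes. ZNF862 was the higher one (1.31), with ZNF217 (0.98), ZNF236 (0.90) and ZNF33B (0.89) next. ZNF652 (-2.08), ZNF212 (-1.85), ZNF24 (-1.70) and ZNF428 (-1.68) were lowest. At both 6 h and 12 h 4 of the 115 genes were at least 2-fold lower, namely ZNF652, ZNF212, ZNF3 and ZNF428, and 0 were at least 2-fold higher at both, against 1.86 and 1.39 percent of all genes. ZNF3 had 109, 73.1 and 60.1 in enzastaurin-treated cells at 3, 6 and 12 h, against 102, 186 and 131 in untreated ones. Its other probe sets, at 24.9 and 13.4 on average, had 0.16 and 1.28 at 6 h and 0.30 and 0.58 at 12 h. ZNF428 had 103, 32.0 and 35.8 in enzastaurin-treated cells at 3, 6 and 12 h, against 92.0, 72.4 and 114.5 in untreated ones. Both genes were at their untreated level or above it at 3 h. The ZNF428 values with enzastaurin at 6 h and 12 h lie at the level of the T, NK and monocyte markers. Averaged over its enzastaurin arrays alone ZNF428 lay under the intensity threshold, so it passed through its untreated arrays.

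**Figure D3:**
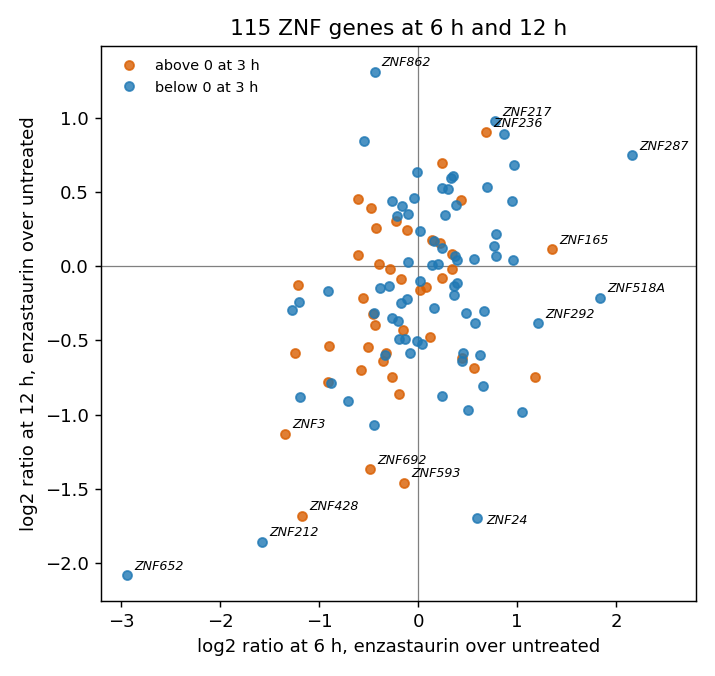
Log2 ratio of enzastaurin over untreated at 6 h (horizontal axis) and at 12 h (vertical axis) for the 115 ZNF genes, coloured by the side of 0 on which the 3 h ratio lay. ZNF652, ZNF212, ZNF428 and ZNF3 lie at or below -1 on both axes, and no gene lies at 1 or above on both.

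Taken over the 115 genes, Pearson's r of the ratios was 0.40 between 6 h and 12 h, -0.21 between 3 h and 6 h and -0.15 between 3 h and 12 h. Genes are no independent replicates, and this is a description. Over all 6838 genes the 3 values were 0.44, -0.21 and -0.14. Each time has its own untreated array, and all genes of a time share the same 2 arrays.

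The second test asked whether the ratio differed with time, as a slope per doubling of hours, and it has 1 residual degree of freedom. It called 1 of 115 ZNF genes, against 1.43 percent of all genes, and 8 had an unadjusted p under 0.05, against 11.0 percent. This was ZNF287, a gene with SCAN and KRAB domains, at a slope of 1.47 (SE 0.42, limma adjusted p = 0.0386). Its intensity was 22.7, 135 and 124 in enzastaurin-treated cells at 3, 6 and 12 h, against 105, 30.1 and 74.0 in untreated ones. Averaged over its untreated arrays alone ZNF287 lay narrowly under the intensity threshold, so it passed through its enzastaurin arrays. The 3 h enzastaurin value and the 6 h untreated value are at the level of the T, NK and monocyte markers, so neither ratio is exact. These 2 arrays also had high ribosomal RNA intensity, 9.99 and 11.98. So did the untreated 12 h array, at 9.29, where ZNF287 read 74.0. The part of ribosomal RNA in this slope was not tested. With quantile normalization the adjusted p was 0.414 in limma and with equal medians of the tested genes 0.482. Its other probe sets, at 26.6 and 7.40 on average, had ratios of -0.69, -1.50 and 1.33 and of 0.65, -0.70 and -3.66.

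The next largest slopes did not pass. ZNF593 had -1.22 (SE 0.37, limma adjusted p = 0.0624). ZNF217, an oncogene of breast cancer that binds the CoREST and CtBP corepressors, had 1.19 (SE 0.37, limma adjusted p = 0.0737). Its intensity was 169, 608 and 511 in enzastaurin-treated cells at 3, 6 and 12 h, against 447, 355 and 260.0 in untreated ones. With enzastaurin it was thus below every untreated array at 3 h and above every one at 6 h and 12 h.

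Several bright ZNF values turned on the untreated 6 h array. ZNF665, a KRAB gene of chromosome 19, had 998, 927 and 880 in enzastaurin-treated cells at 3, 6 and 12 h, against 981, 2149 and 960 in untreated ones. ZNF160 had 312.5, 246 and 227 in enzastaurin-treated cells, against 333.5, 597 and 278.5 in untreated ones. ZNF721, named here after its values were seen, had 336, 258 and 257 in enzastaurin-treated cells, against 371, 594 and 304 in untreated ones. In all 3 the untreated 6 h value was the highest, and the other 5 arrays lay below it with enzastaurin and untreated values overlapping. Their probe sets are all of the type whose probes can match several genes, and whether they read 1 RNA or several was not tested.

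In the opposite direction, ZNF518A had 128.5, 247 and 150 in enzastaurin-treated cells at 3, 6 and 12 h, against 246.5, 69.2 and 174 in untreated ones. ZNF292, a large zinc finger protein mutated in some leukaemias, had 590, 757 and 481 in enzastaurin-treated cells, against 973.5, 328 and 627 in untreated ones. A second ZNF292 probe set had -0.26 at 6 h where the brightest had 1.21. Of the 115 genes 23 had their highest value on the untreated 6 h array and 29 their lowest, or 20.0 and 25.2 percent, against 15.2 and 20.2 percent of all genes. The enzastaurin 12 h array held the lowest value of more of them, 36 or 31.3 percent, against 30.3 percent of all genes, and the untreated 3 h array the highest of more, 28 or 24.3 percent, against 20.3 percent.

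**Figure D4:**
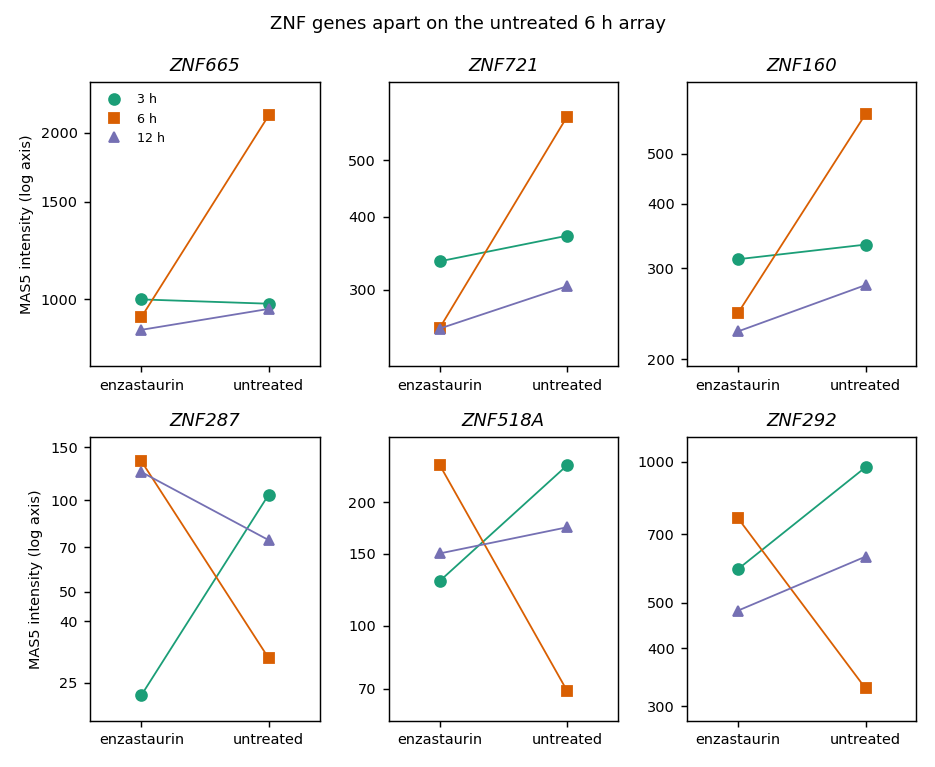
MAS5 intensity (log axis) of 6 ZNF genes whose untreated 6 h array (square on the right) lies apart from the other arrays, with enzastaurin on the left and untreated cells on the right; lines join the 2 arrays of a time. ZNF665, ZNF721 and ZNF160 are highest there and ZNF518A and ZNF292 lowest, while ZNF287 is low there and on the 3 h enzastaurin array.

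Probe sets of the type that can match several genes made up 24 of the 115, or the _x_at class of the array. Of these 24, 4 were at least 2-fold lower at 6 h, or 16.7 percent, against 4.78 percent of the 586 tested genes with such a probe set. The 4 were ZNF611, ZNF160, ZNF665 and ZNF721. For the 60 ZNF genes read by a plain probe set the share was 6.67 percent, against 3.01 percent of all such genes. For the 31 read by an _s_at probe set it was 3.23 percent, against 3.16 percent. At 12 h 0 of the 24 were at least 2-fold lower.

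By position, the 37 genes on chromosome 19 had a median mean log2 ratio of -0.12 and the 78 on other chromosomes one of -0.01. At 3, 6 and 12 h the medians were -0.20, -0.16 and -0.19 on chromosome 19 and -0.09, 0.10 and -0.13 elsewhere. On chromosome 19 0 of 37 genes were above 0 at all 3 times and 7 below. There were 7 runs of 3 or more neighbours among the genes. The run of ZNF136, ZNF44 and ZNF443 on chromosome 19 had every mean ratio below 0, at -0.39, -0.26 and -0.54. Mean ratios were all above 0 for ZNF771, ZNF747 and ZNF764 on chromosome 16, between 0.06 and 0.28. They were so too for ZNF7, ZNF250 and ZNF16 on chromosome 8, between 0.06 and 0.41. By single time, the run of ZNF136 was all below 0 at 6 h and 12 h and held both signs at 3 h. Ratios of the chromosome 16 run were all above 0 at 12 h only, and those of the chromosome 8 run at 3 h only. The other 4 runs held means of both signs. ZNF212 lay in a run with ZNF282, ZNF783 and ZNF862 on chromosome 7, whose mean ratios were -0.04, 0.15 and 0.21, against -1.52 for ZNF212.

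Other zinc finger genes, named ZBTB, ZSCAN, ZKSCAN, ZFP or KLF, numbered 33 above the threshold. Their median log2 ratio was -0.02, 0.23 and 0.16 at 3, 6 and 12 h. At 12 h 7 of the 33 were at least 2-fold higher, or 21.2 percent, where 1 of the 115 ZNF genes and 3.88 percent of all genes were. Among the 7 was KLF4, which averaged under the intensity threshold over its untreated arrays alone and so passed through its enzastaurin arrays. Its untreated 12 h value, 32.5, lies at the level of the T, NK and monocyte markers. In limma 0 of the 33 passed over the 3 times against 0.0585 percent of all genes, and 7 had an unadjusted p under 0.05, against 5.41 percent. The slope was called in 2 of them, against 1.43 percent of all genes, and without the 3 h pair 3 were called higher and 1 lower, against 1.54 and 2.08 percent. The highest mean ratio was that of ZFP36L1, which destabilises mRNAs, at 1.45 (SE 0.32, limma adjusted p = 0.280). The difference between these names and the ZNF genes was not tested.

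Where a gene had further probe sets, they were set beside the one used. There were 52 further probe sets of 41 genes, and 28 of them had a mean ratio of the same sign as the brightest. Above the intensity threshold it was 13 of 21, and below it 15 of 31. The other 24 had the opposite sign. For 74 genes, ZNF652, ZNF212 and ZNF611 among them, there was 1 probe set.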

How the data were processed

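The authors deposited linear MAS5 intensity per probe set for 6 arrays, per the submitters' processing notes; no source used here gives its version or scaling target. Intensities were floored at 1 and log2 transformed, with no further scaling. Probe sets with 1 gene symbol were kept, the brightest per gene was used, and the 6838 genes above the median probe set, by mean log2 intensity, were tested. limma 3.58.1 in R 4.3.3 fitted treatment with time as a block, pairing the arrays of a time point as the labels give it, with an intensity trend in the prior and Benjamini-Hochberg adjustment over all 6838 genes. A second fit took the slope of the ratio on log2 hours. The code was tested on simulated data. The number of arrays limits the precision. Genes named are those past either test, the 8 largest mean ratios each way with 1 sign at all times (7 higher), the 4 highest and lowest at each time, the 5 brightest, 3 on each side of the intensity threshold and up to 4 or 5 of each role list. Members and lists were chosen with earlier results of these data known. Classes by protein domain were not analysed here. Names, chromosomes and promoters came from RefSeq (GRCh38.p14).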

Additional observations from a re-analysis of the deposited data

Results flagged for a closer look

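The ratio of ZNF287 differed between times, with a slope of 1.47 log2 units per doubling of hours in limma (adjusted p = 0.0386). Its log2 ratio of enzastaurin over untreated was -2.20 at 3 h, 2.16 at 6 h and 0.75 at 12 h. The extremes came from 2 single low arrays, 22.7 with enzastaurin at 3 h and 30.1 in untreated cells at 6 h, and the 2 other probe sets of the gene had mean ratios of -0.29 and -1.24 where this one had 0.24. ZNF287 passed the intensity threshold through its enzastaurin arrays, as its untreated arrays alone averaged narrowly under it.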

How the results depend on the processing

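Over the 3 times, 4 genes were called in all and 0 ZNF genes. Across all genes the count was 1 with quantile normalization, 1 with equal medians of all probe sets, 1 with no filter on dim probe sets, 0 with no intensity trend in the prior (360 at an unadjusted p under 0.05) and 2 without the replicate block of time. With ribosomal RNA intensity as a covariate, chosen after seeing the data, it was 74, of which 2 were ZNF genes. Leaving out 1 pair in turn gave 0 to 247 genes and 0 to 2 ZNF genes; the highest counts came without the 3 h pair. ZNF652 was at -1.29 without the 6 h pair and -1.71 without the 12 h pair, and ZNF212 at -1.49 and -1.36, each with a limma adjusted p of 0.9997. Without the block the limma adjusted p was 0.376 for ZNF652 and 0.271 for ZNF212. ZNF384 was at -0.0076 with the median over probe sets. For the slope, 98 genes and 1 ZNF gene were called. Quantile normalization gave 0 and 0 (727 genes at an unadjusted p under 0.05 in limma), equal medians of all probe sets 167 and 2, equal medians of the tested genes, added after seeing the data, 0 and 0 (675 unadjusted), no filter 151 genes, and no trend 2 ZNF genes. At 12 h, 1 ZNF gene was at least 2-fold higher, against 4 with quantile normalization and 5 with equal medians of the tested genes, which moved the ZNF median at 12 h to 0.0488. The cause of these shifts was not tested. With 1 array per treatment and time, no ratio at a single time has an error of its own, and dim genes near the level of absent markers have inexact ratios.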
